A study of Homo sapiens with 16 samples.

Results

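The genes described here are 38 human genes of ribosome biogenesis and the nucleolus, chosen by symbol from a list of nucleolar and RNA polymerase I genes known as targets of the transcription factor MYC. All 38 were found among the 23230 gene symbols counted in each library, and all 38 passed the filter on low counts that left 13043 genes for testing. By role they are 5 genes of RNA polymerase I transcription, 4 of box C/D and 3 of box H/ACA small nucleolar ribonucleoproteins (snoRNPs), 9 of small subunit assembly, 11 of large subunit assembly and 6 other nucleolar proteins. A wider list of 95 other ribosome biogenesis genes, of which all 95 passed the same filter, was set beside them.

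Messenger RNA was sequenced from 8 established human lines, of blood cancers or, for P493-6, of a lymphoma model. They were grown with a peptide called Y518R, which binds DPY30, or with a peptide called 3R, which does not bind it. DPY30 belongs to all of the SET1/MLL complexes, which put methyl groups on lysine 4 of histone H3, and the series asks what peptides directed at it do to blood cancer cells. The lines with an MLL fusion, per the labels, were MOLM13 and THP1 (MLL-AF9), RS4-11 (MLL-AF4) and KOPN8 (MLL-ENL), and the rest were K562, which carries BCR-ABL, JURKAT from a leukemia of T cells that the labels call Myc dependent, RAJI from a Burkitt's lymphoma and P493-6, which models that lymphoma. All 16 libraries came from cells in Advanced RPMI with 2.5% serum, and each line had 1 library per peptide, so that the lines were the replicates (n = 8, or 4 per class).

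Each line is a single established cell line, and P493-6 is known for a conditional MYC transgene, so its MYC mRNA is not under the control of the natural gene alone. The sources used here give neither peptide dose nor time. Libraries held 19354300 to 43003124 gene counts, and the 38 genes together took 0.477% to 1.14% of them. The labels name T cells for JURKAT, and Burkitt's lymphoma or a model of it for RAJI and P493-6. For the other lines they name a fusion and no lineage, so lineage markers there have no label to match. All 5 T cell markers reached 10 CPM (reads of a gene per library size, after TMM scaling) in both JURKAT libraries and all 5 erythroid markers did so in K562, as did 4 of 5 B cell markers in RS4-11, 5 of 5 in KOPN8, RAJI and P493-6, and 3 of 5 monocytic markers in MOLM13 and THP1. Of HOXA9, HOXA10 and MEIS1, 2 or 3 reached that level in each MLL-fusion line and 0 in each other line. Some markers of another lineage also reached it in both libraries: 2 of 5 T cell markers in KOPN8 and 1 each in RS4-11 and RAJI, 1 B cell marker in JURKAT, and 2 monocytic markers in K562 and 1 each in RS4-11 and KOPN8. The RAJI 3R library stood apart, since 44.7% of its reads fell in no gene, against 17.7% to 26.9% in the other 15. In bulk libraries such as these, a change in the share of cells and a change in RNA per cell cannot be told apart, and CPM are relative to the other mRNA of a library.

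Ribosome biogenesis starts in the nucleolus, where RNA polymerase I transcribes a long precursor RNA. Box C/D and box H/ACA snoRNPs guide its methylation and pseudouridylation, and a large series of assembly factors cuts and folds it into the small and the large ribosomal subunit. MYC binds E-boxes, whose best known form is CACGTG, near the start of many of these genes, and the pathway is one of the most widely described outputs of MYC in blood cancers.

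The letters CACGTG stood in the promoter window of 15 of the 33 members that had a window in the RefSeq table (GRCh38.p14, from 250 bases before to 50 after an annotated start), which is 45.5%. NOP58, RRP12, RRP1B, BOP1 and NOLC1 had none. This letter string reads the same on both strands. It was present for 30.9% of the 81 genes of the wider list with a window, and for 12.9% of the 8917 tested genes with one. The following sites, each of 30 bases on the gene's strand with CACGTG in capitals, are shown for 5 genes whose change went with that of MYC in the test below and for 3 genes that did not pass it. They lie at chr19:39846356-39846385 (minus strand) for FBL, chr3:51941892-51941921 (minus) for RRP9, chr4:2963374-2963403 (minus) for NOP14, chr2:28894658-28894687 (plus) for WDR43 and chr22:30591880-30591909 (minus) for PES1. Those of genes that did not pass lie at chr12:101280083-101280112 (plus) for UTP20, chr1:19251807-19251836 (plus) for MRTO4 and chr11:34105602-34105631 (plus) for NAT10.
FBL: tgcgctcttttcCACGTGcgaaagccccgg
RRP9: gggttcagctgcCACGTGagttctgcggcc
NOP14: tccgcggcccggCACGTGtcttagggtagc
WDR43: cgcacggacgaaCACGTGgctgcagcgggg
PES1: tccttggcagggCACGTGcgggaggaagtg
UTP20: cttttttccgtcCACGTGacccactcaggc
MRTO4: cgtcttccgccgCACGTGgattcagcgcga
NAT10: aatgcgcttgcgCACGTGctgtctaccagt
Counted from the start site as position 1, the first base of the string was at position 7 in FBL, −5 in RRP9, 16 in NOP14, 4 in WDR43, 14 in PES1, −10 in UTP20, 15 in MRTO4 and −15 in NAT10. The string was thus close to the start both in genes that passed the test and in genes that did not. Of the members that passed it, 5 of 8 with a window held the string, against 10 of 25 of the members that did not.

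MYC mRNA itself was higher with Y518R in one MLL-AF9 line, MOLM13, and lower in the other, THP1. MYC was at 756 CPM with Y518R against 392 CPM with 3R in MOLM13, 121 against 197 in THP1, 324 against 329 in RS4-11 and 312 against 281 in KOPN8. For MYC the other lines gave 463 CPM with Y518R against 431 CPM with 3R in K562, 459.8 against 435 in RAJI, 334 against 364 in JURKAT and 4654 against 5309 in P493-6. MYC was higher with Y518R in 4 lines and lower in 4. Its log2 ratio of Y518R over 3R was 0.95 in MOLM13 and −0.71 in THP1, and between −0.19 and 0.15 in the other 6 lines. Over all 8 lines MYC was at 0.029 ± 0.12 (log2 change ± SE, n = 8 lines, edgeR adjusted p = 0.999). MYC thus had 2 lines with a large change, of opposite sign, and the question put to each of the 38 genes was whether its own change went the same way.

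**Figure D1:**
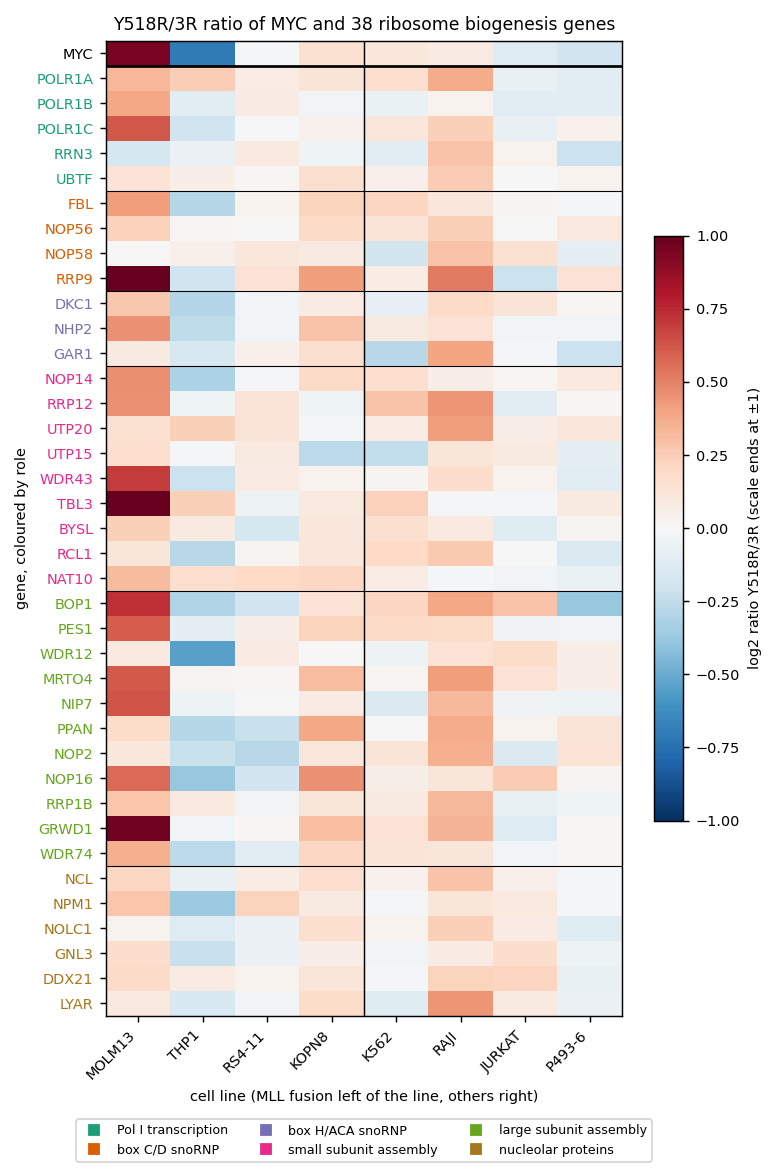
Log2 ratio of Y518R over 3R for MYC (top row) and the 38 genes (rows, coloured by role) in the 8 cell lines (columns), with red for higher with Y518R and the colour scale ending at 1 in each direction. The MOLM13 column is red for 37 of 38 genes, the THP1 column is blue for 27, and RRP9 (1.53) and TBL3 (1.14) in MOLM13 lie past the end of the scale.

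Within MOLM13, where MYC was 1.93-fold higher with Y518R, 37 of the 38 genes were higher with Y518R, beside 48.4% of all tested genes. The 38 genes had a median log2 ratio of 0.28. Of them 9 were at least 1.5-fold higher, beside 7.4% of all tested genes. These were RRP9, TBL3, GRWD1, BOP1, WDR43, NIP7, POLR1C, MRTO4 and PES1, and 5 of them came from large subunit assembly, whose 11 genes had a median of 0.57. RRP9 had 1255 counts with Y518R and 491 with 3R, a log2 ratio of 1.53 with an exact 95% counting interval of 1.38 to 1.69. RRN3 was the gene below 0 (−0.17), and NOP58 had equal levels (289 CPM with each peptide). There is 1 library per peptide in a line, so a single line allows no test, and the counting interval does not cover the spread between cultures.

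Within THP1, where MYC was at 0.613 of its level with 3R, 27 of the 38 genes were lower with Y518R and 11 higher. Their median was −0.12, and 49.2% of all tested genes were higher with Y518R. None of the 38 genes was 1.5-fold lower, beside 6.88% of all tested genes. WDR12, which forms the PeBoW complex of large subunit assembly with PES1 and BOP1, came lowest at −0.54 (63.2 CPM with Y518R against 92.0 CPM with 3R), and POLR1A highest at 0.25. All 3 box H/ACA genes were lower with Y518R in THP1 and higher in MOLM13.

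In RAJI 36 of the 38 genes were higher with Y518R, with a median of 0.24, while MYC was at 0.082. None was 1.5-fold higher, beside 4.75% of all tested genes. The RAJI 3R library is the one with 44.7% of reads in no gene, and the part of that in the RAJI values was not tested. KOPN8 had 32 of 38 genes higher (median 0.12, MYC 0.15), K562 25 (0.064, MYC 0.10), RS4-11 23 (0.019, MYC −0.023), JURKAT 21 (0.011, MYC −0.13) and P493-6 17 (−0.016, MYC −0.19). Lines with MYC near its 3R level had medians from −0.016 to 0.24.

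The GC content of transcripts went with the ratios as well, and in different directions by line. The Spearman correlation of GC content with the log2 ratio over the 11036 genes with an annotated transcript was 0.30 in MOLM13 and −0.15 in THP1, and from −0.49 (JURKAT) to 0.36 (K562) in the other lines. The 38 genes ran from 38.7% to 65.2% GC. With the GC trend of each line removed, the median of the 38 genes was 0.28 in MOLM13, −0.12 in THP1, 0.26 in RAJI and 0.025 in K562, and 6 genes were at least 1.5-fold higher in MOLM13.

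**Figure D2:**
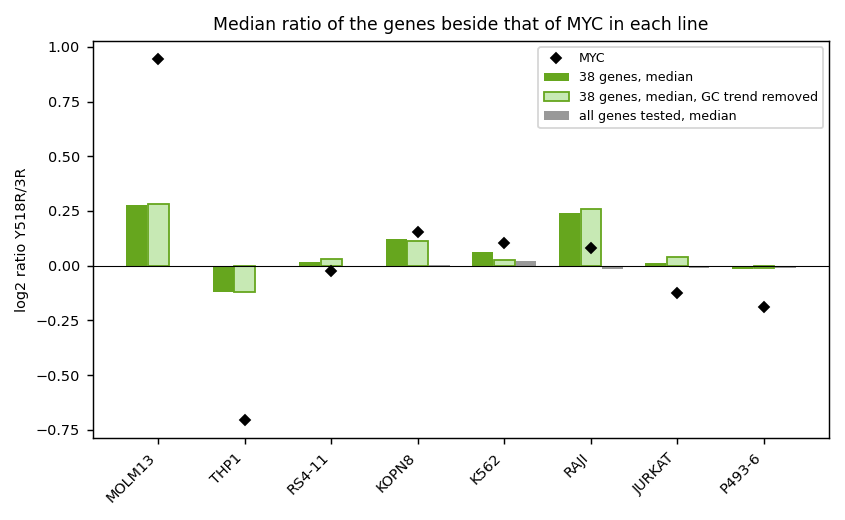
Median log2 ratio of Y518R over 3R of the 38 genes with no GC correction (dark green) and with the GC trend of the line removed (light green), and of all tested genes (grey), with the ratio of MYC as diamonds, for the 8 cell lines. The 38 genes lie above 0 in MOLM13 (0.28) and RAJI (0.24) and below 0 in THP1 (−0.12), while the median of all genes lies near 0 in each line.

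Over all 8 lines none of the 38 genes passed the test, and most had a log2 change slightly above 0. Of the 38 genes 34 were above 0, with a median log2 change of 0.090, beside 48.2% of all tested genes and a median of −0.0038. The wider list had 82 of 95 above 0 and a median of 0.058. The edgeR quasi-likelihood test with Benjamini-Hochberg adjustment over 13043 genes called 0 members and 0 genes in all (0.0%). At an unadjusted p under 0.05 stood 4 members, all higher, beside 178 higher and 216 lower genes of all tested, and DESeq2 called 0 and limma-voom 1 gene. Without MOLM13 the members' median was 0.042, with 33 of 38 above 0. For each of the 38 genes the range of the 8 Y518R libraries overlapped that of the 8 3R libraries. These ranges ignore the pairing and hold the spread between lines, so the overlap does not bear on the peptide. The median SD was 0.55 between lines against 0.14 between the libraries of a line, and the overlap over all genes was not counted.

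MRTO4, a factor that holds the place of the stalk protein P0 on the forming large subunit, had the lowest p among genes above 0. MRTO4 was at 137 CPM with Y518R against 89.6 CPM with 3R in MOLM13, 105 against 103 in THP1, 125 against 124 in RS4-11 and 115 against 92.7 in KOPN8. For MRTO4 the other lines gave 234 CPM with Y518R against 231 CPM with 3R in K562, 208 against 155 in RAJI, 72.3 against 65.2 in JURKAT and 155 against 148 in P493-6. All 8 lines had more MRTO4 with Y518R, from 0.018 in RS4-11 to 0.61 in MOLM13. Its log2 change was 0.20 ± 0.069 (SE, n = 8, edgeR adjusted p = 0.999).

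UTP20, a component of the small subunit processome, came next. UTP20 was at 45.1 CPM with Y518R against 40.7 CPM with 3R in MOLM13, 54.6 against 46.2 in THP1, 42.8 against 39.1 in RS4-11 and 55.8 against 56.2 in KOPN8. For UTP20 the other lines gave 113 CPM with Y518R against 107 CPM with 3R in K562, 129 against 95.9 in RAJI, 82.4 against 78.5 in JURKAT and 137 against 127 in P493-6. KOPN8 was the single line not above 0, and RAJI had the largest ratio (0.42). The log2 change of UTP20 was 0.15 ± 0.056 over the 8 lines (SE, edgeR adjusted p = 0.999).

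POLR1A encodes the largest subunit of RNA polymerase I. POLR1A was at 79.6 CPM with Y518R against 63.0 CPM with 3R in MOLM13, 78.2 against 66.005 in THP1, 79.6 against 75.7 in RS4-11 and 81.0 against 74.2 in KOPN8. For POLR1A the other lines gave 162 CPM with Y518R against 144 CPM with 3R in K562, 222 against 172 in RAJI, 93.7 against 98.7 in JURKAT and 139 against 149.7 in P493-6. JURKAT and P493-6 were the lines with less POLR1A with Y518R. Its change was 0.14 ± 0.061 (SE, edgeR adjusted p = 0.999), and it was higher in THP1, where MYC was lower.

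Genes below 0 over the 8 lines were RRN3, UTP15, WDR12 and GAR1, of which GAR1 was at −0.00064. RRN3 encodes the factor that brings RNA polymerase I to its promoter, and its counts are uncertain because near-identical pseudogene copies exist. RRN3 was at 88.2 CPM with Y518R against 99.5 CPM with 3R in MOLM13, 62.5 against 65.1 in THP1, 82.9 against 77.4 in RS4-11 and 93.5 against 96.3 in KOPN8. For RRN3 the other lines gave 65.5 CPM with Y518R against 70.7 CPM with 3R in K562, 90.5 against 74.4 in RAJI, 84.6 against 82.6 in JURKAT and 97.4 against 113 in P493-6. RRN3 was higher with Y518R in 3 lines and lower in 5, with a change of −0.024 ± 0.059 (SE, edgeR adjusted p = 0.999).

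UTP15 is a small subunit factor that also promotes transcription of the precursor RNA. UTP15 was at 21.4 CPM with Y518R against 19.1 CPM with 3R in MOLM13, 23.0 against 23.2 in THP1, 20.9 against 19.6 in RS4-11 and 22.4 against 26.9 in KOPN8. For UTP15 the other lines gave 51.6 CPM with Y518R against 61.2 CPM with 3R in K562, 51.7 against 47.4 in RAJI, 34.1 against 32.1 in JURKAT and 49.6 against 52.9 in P493-6. KOPN8 and K562 had the lowest UTP15 ratios, and 4 of 8 lines were higher. The change was −0.020 ± 0.070 (SE, edgeR adjusted p = 0.999).

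WDR12 also had no common direction, with 1 line far from the rest. WDR12 was at 136 CPM with Y518R against 127 CPM with 3R in MOLM13, 63.2 against 92.0 in THP1, 59.9 against 56.5 in RS4-11 and 51.5 against 51.6 in KOPN8. For WDR12 the other lines gave 148 CPM with Y518R against 154 CPM with 3R in K562, 94.9 against 85.7 in RAJI, 92.3 against 81.2 in JURKAT and 97.2 against 93.3 in P493-6. THP1 was the line with clearly less WDR12 with Y518R, and 5 of 8 lines were higher. The log2 change of WDR12 was −0.0018 ± 0.071 (SE, edgeR adjusted p = 0.999).

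The comparison by class asked whether the lines with an MLL fusion responded apart from the others. In the MLL-fusion lines 32 of 38 genes were above 0, with a median of 0.092, and in the other lines 33 of 38, with a median of 0.079. Among all tested genes 49.7% were above 0 in the MLL-fusion lines and 48.2% in the other lines. In the edgeR test 0 members and 0 genes (0.0%) were called in either class, with 6 members at an unadjusted p under 0.05 in the MLL-fusion lines and 0 in the other lines. Over all genes that count was 387 higher and 375 lower in the MLL-fusion lines, and 53 higher and 151 lower in the other lines. DESeq2 called 1 and limma-voom 20 genes in the MLL-fusion lines, and 0 and 2 in the other lines. Without MOLM13 the MLL-fusion median was 0.0055 with 21 of 38 genes above 0, and without RAJI the median of the other lines was 0.023 with 26 above 0.

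The test of the difference between the classes itself called 0 members and 0 genes (0.0%). The members had a median difference, MLL-fusion minus other lines, of 0.011 (−0.026 with scaling by total counts alone), and 22 of 38 were above 0. All tested genes had a median of 0.0093 with 52.1% above 0, so the members lay close to them. NAT10, the acetyltransferase of the small subunit RNA, was the member at an unadjusted p under 0.05, with a difference of 0.23 ± 0.093 (SE, edgeR adjusted p = 0.999), beside 269 genes higher and 225 lower of all tested. DESeq2 and limma-voom called 2 genes each. NAT10 was above 0 in all 4 MLL-fusion lines, with log2 ratios from 0.17 to 0.32, and in 1 of the 4 other lines.

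Each gene's change was then set against the change of MYC. The slope is the log2 change of a gene per log2 unit, or doubling, of the MYC ratio across the 8 lines, fitted for the 13042 tested genes other than MYC with the line as a block. Of the 38 genes 35 had a slope above 0, with a median of 0.29, beside a median of −0.0071 over all genes and of 0.20 in the wider list (82 of 95 above 0). The edgeR test called 9 members, all in the same direction as MYC, where 1.68% of all genes were called in that direction and 0.797% in the opposite one. In all 19 members had an unadjusted p under 0.05, each above 0, beside 1338 genes above 0 and 1172 below, and DESeq2 called 12 members of 700 genes and limma-voom 12 of 768, against 9 of 323 in edgeR. The 9 called by edgeR were RRP9, WDR43, PES1, GRWD1, NOP14, FBL, NHP2, POLR1C and BOP1, from 5 of the 6 roles.

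That count rests on MOLM13. Without MOLM13, 0 members were called while 306 genes were, and FBL had the lowest adjusted p of the members (0.0658). In that fit 34 of 38 slopes were above 0, with a median of 0.33, and 9 of the 9 genes named above had slopes above 0. Leaving out another line gave 2 called members of 43 called genes (KOPN8), 3 of 103 (JURKAT), 3 of 138 (K562), 4 of 131 (RS4-11), 5 of 193 (THP1), 7 of 213 (P493-6) or 10 of 594 (RAJI), so the count over all genes moved as well. Without both MOLM13 and THP1, the lines with the largest MYC changes, 0 members and 0 genes were called and the median slope was 0.55. The MYC log2 ratios of the remaining lines ran from −0.19 to 0.15 alone. A slope per doubling reaches far past that range, so the 0.55 does not show a steeper relation. With the GC trend of each line removed 9 members were called, of which 8 were among the 9 above, 38 of 38 slopes were above 0, and 272 of 11035 genes passed. NPM1 was called in that fit and BOP1 was not. Scaling by total counts alone gave 4 called members and 369 called genes, beside 323 genes with TMM scaling.

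**Figure D3:**
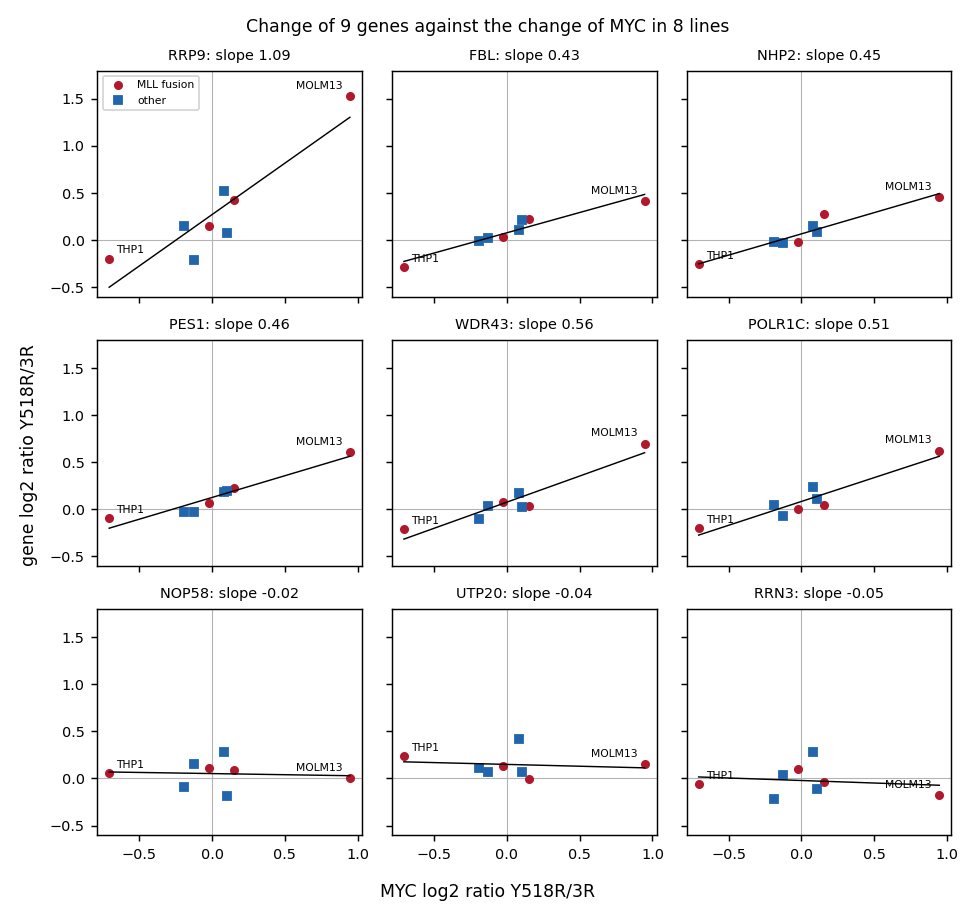
Log2 ratio of Y518R over 3R of 9 genes (vertical axis) against that of MYC (horizontal axis) in the 4 MLL-fusion lines (circles) and the 4 other lines (squares), with the fitted edgeR slope drawn through the mean of the points. The upper 6 genes passed the test and rise with MYC, from 0.43 for FBL to 1.09 for RRP9 per doubling of MYC, while NOP58, UTP20 and RRN3 are flat and MOLM13 and THP1 are the outermost points.

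Among the genes of RNA polymerase I transcription, 4 of 5 slopes were above 0 and POLR1C was called. POLR1C encodes a subunit that RNA polymerases I and III share. POLR1C was at 79.1 CPM with Y518R against 51.3 CPM with 3R in MOLM13, 40.2 against 46.3 in THP1, 37.0 against 37.0 in RS4-11 and 39.7 against 38.4 in KOPN8. For POLR1C the other lines gave 95.03 CPM with Y518R against 87.8 CPM with 3R in K562, 78.3 against 66.3 in RAJI, 39.5 against 41.6 in JURKAT and 94.7 against 92.1 in P493-6. The MOLM13 pair differs by more than those of the other lines, and THP1 has the lowest ratio. The slope of POLR1C was 0.51 ± 0.11 (SE, edgeR adjusted p = 0.038), and without MOLM13 it was 0.38 (edgeR adjusted p = 0.397).

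POLR1B, the second-largest subunit of RNA polymerase I, was not called. POLR1B was at 96.0 CPM with Y518R against 73.5 CPM with 3R in MOLM13, 45.6 against 49.3 in THP1, 84.2 against 79.5 in RS4-11 and 87.2 against 89.0 in KOPN8. For POLR1B the other lines gave 106 CPM with Y518R against 111 CPM with 3R in K562, 143 against 139 in RAJI, 56.6 against 60.8 in JURKAT and 192 against 208 in P493-6. MOLM13 was the one line with a clearly higher POLR1B level with Y518R, and RS4-11 and RAJI were slightly higher. Its slope was 0.32 ± 0.11 (SE, edgeR adjusted p = 0.121). POLR1A (0.14 ± 0.13), UBTF (0.074 ± 0.10), which binds the promoter of the ribosomal RNA genes, and RRN3 (−0.053 ± 0.13) were not called either.

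Box C/D snoRNPs held the steepest slope of the 38 genes. RRP9 is a protein of the U3 snoRNP, which acts in the first cuts of the precursor RNA. RRP9 was at 61.9 CPM with Y518R against 21.4 CPM with 3R in MOLM13, 34.1 against 39.2 in THP1, 42.8 against 38.7 in RS4-11 and 33.5 against 24.999 in KOPN8. For RRP9 the other lines gave 69.5 CPM with Y518R against 66 CPM with 3R in K562, 67.5 against 47.1 in RAJI, 48.6 against 56.3 in JURKAT and 115 against 104 in P493-6. RRP9 was 2.90-fold higher with Y518R in MOLM13, and it was higher in 6 lines and lower in THP1 and JURKAT. The slope was 1.09 ± 0.18 (SE, edgeR adjusted p = 0.0147), a 2.13-fold change for each doubling of MYC, and 0.65 without MOLM13 (edgeR adjusted p = 0.231).

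FBL encodes fibrillarin, the methyltransferase of the box C/D particle. FBL was at 606 CPM with Y518R against 454 CPM with 3R in MOLM13, 136 against 166 in THP1, 198 against 194 in RS4-11 and 207 against 177 in KOPN8. For FBL the other lines gave 441 CPM with Y518R against 381 CPM with 3R in K562, 382 against 353 in RAJI, 259.8 against 255 in JURKAT and 599 against 603 in P493-6. The 8 FBL ratios stood in the same order as the 8 MYC ratios (rho = 1). Some neighbours in that order were close. Counting intervals overlapped for MYC in K562 (0.067 to 0.14) and RAJI (0.038 to 0.13). Those of FBL overlapped in KOPN8 (0.17 to 0.28) and K562 (0.17 to 0.25). How many of all genes had such an order was not counted. The slope of FBL was 0.43 ± 0.091 (SE, edgeR adjusted p = 0.0307), and 0.56 without MOLM13. The other core proteins of the same particle gave lower values, with a slope of 0.15 ± 0.10 for NOP56 and −0.024 ± 0.12 for NOP58, and neither passed the test.

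**Figure D4:**
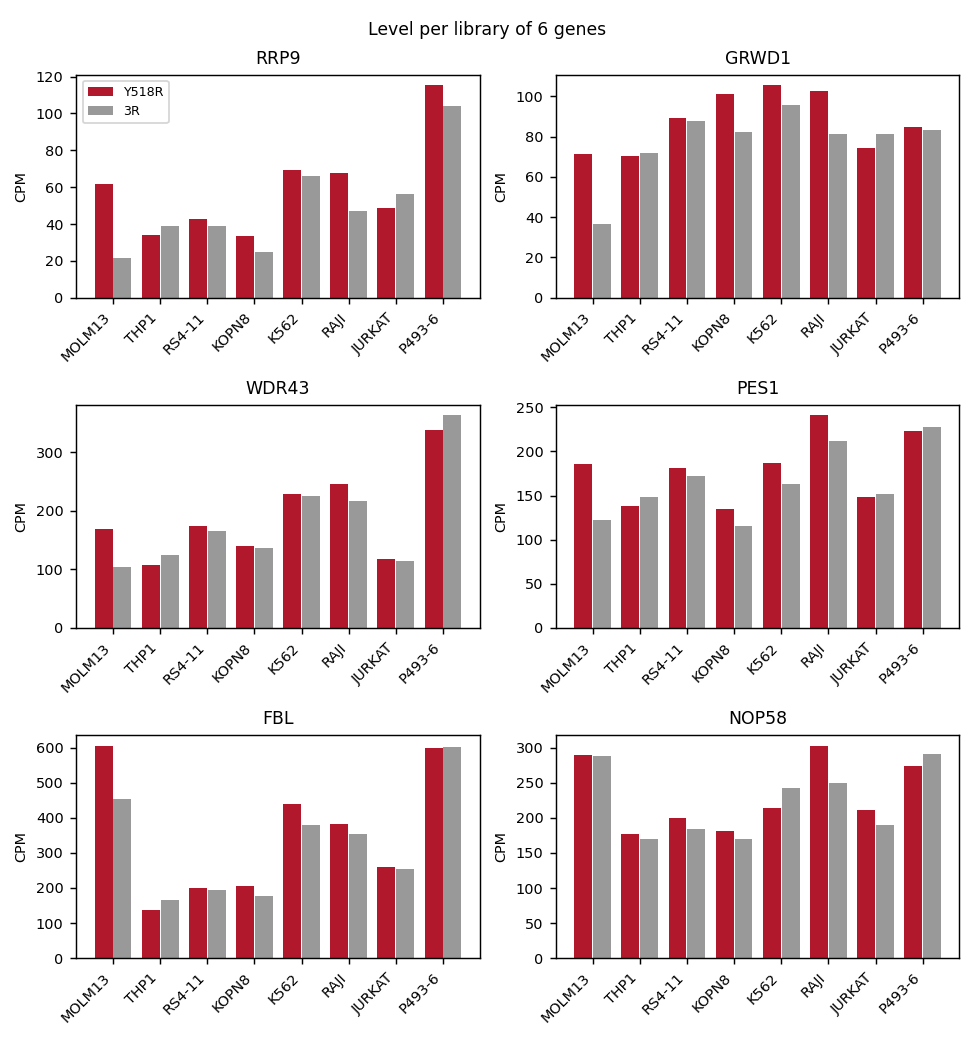
CPM of 5 genes whose change went with that of MYC (RRP9, GRWD1, WDR43, PES1, FBL) and of NOP58, which did not pass, in each library, with Y518R (red) left of 3R (grey) in each of the 8 lines. In MOLM13 the Y518R bar stands above the 3R bar for the first 5 genes (61.9 against 21.4 CPM for RRP9) and level with it for NOP58.

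All 3 box H/ACA genes had slopes above 0 and NHP2 was called. NHP2 is a core protein of the particle that places pseudouridines, and of telomerase. NHP2 was at 154 CPM with Y518R against 112 CPM with 3R in MOLM13, 111 against 132 in THP1, 161 against 164 in RS4-11 and 162 against 133 in KOPN8. For NHP2 the other lines gave 164 CPM with Y518R against 154 CPM with 3R in K562, 239 against 216 in RAJI, 148 against 151 in JURKAT and 203 against 206 in P493-6. NHP2 had the sign of the MYC ratio in all 8 lines, the single member that did. In RS4-11, however, the counting intervals of both ratios held 0 (MYC −0.059 to 0.013, NHP2 −0.075 to 0.028). Those of NHP2 in JURKAT and P493-6 held 0 as well, and such matches over all genes were not counted. The slope was 0.45 ± 0.10 (SE, edgeR adjusted p = 0.0312), and 0.52 without MOLM13 (edgeR adjusted p = 0.130).

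DKC1, the pseudouridine synthase dyskerin, had a smaller slope. DKC1 was at 245 CPM with Y518R against 203 CPM with 3R in MOLM13, 152 against 186 in THP1, 267 against 272 in RS4-11 and 205 against 193 in KOPN8. For DKC1 the other lines gave 435 CPM with Y518R against 462 CPM with 3R in K562, 279 against 244 in RAJI, 214 against 196 in JURKAT and 387 against 381 in P493-6. MOLM13 was highest and THP1 lowest among its ratios. The DKC1 slope was 0.31 ± 0.10 (SE, edgeR adjusted p = 0.124), and that of GAR1 was 0.18 ± 0.16 (edgeR adjusted p = 0.587).

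In small subunit assembly 8 of 9 slopes were above 0, and WDR43 and NOP14 were called. WDR43 joins the precursor RNA early, with the group of factors that includes UTP15. WDR43 was at 169 CPM with Y518R against 104 CPM with 3R in MOLM13, 108 against 125 in THP1, 175 against 165 in RS4-11 and 140.3 against 137 in KOPN8. For WDR43 the other lines gave 229 CPM with Y518R against 225 CPM with 3R in K562, 245 against 217 in RAJI, 118 against 115 in JURKAT and 338 against 363 in P493-6. MOLM13 stood 0.70 above its 3R level and THP1 0.21 below, with the other lines between −0.10 and 0.17. WDR43 had a slope of 0.56 ± 0.10 (SE, edgeR adjusted p = 0.0207), and of 0.36 without MOLM13 (edgeR adjusted p = 0.317).

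NOP14 is needed for the maturation of the small subunit RNA. NOP14 was at 161 CPM with Y518R against 117 CPM with 3R in MOLM13, 103 against 128 in THP1, 128 against 129 in RS4-11 and 153 against 134 in KOPN8. For NOP14 the other lines gave 184 CPM with Y518R against 164 CPM with 3R in K562, 163 against 156 in RAJI, 115 against 113 in JURKAT and 337 against 315 in P493-6. NOP14 was lower with Y518R in THP1 and RS4-11 and higher in the other 6 lines. The slope was 0.46 ± 0.10 (SE, edgeR adjusted p = 0.0287), and 0.52 without MOLM13 (edgeR adjusted p = 0.127). TBL3, also of the small subunit processome, had a larger slope that was not called (0.59 ± 0.19, edgeR adjusted p = 0.108), and it was −0.18 without MOLM13. The remaining slopes of this role ran from −0.039 (UTP20) to 0.34 (RRP12).

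Large subunit assembly had 11 of 11 slopes above 0, and PES1, GRWD1 and BOP1 were called. PES1 is the pescadillo protein of the PeBoW complex. PES1 was at 186 CPM with Y518R against 122 CPM with 3R in MOLM13, 138 against 148 in THP1, 181 against 172 in RS4-11 and 134 against 115 in KOPN8. For PES1 the other lines gave 187 CPM with Y518R against 163 CPM with 3R in K562, 241 against 212 in RAJI, 148 against 151 in JURKAT and 223 against 227 in P493-6. The ratio was highest in MOLM13 and lowest in THP1, with 5 of 8 lines higher. PES1 had a slope of 0.46 ± 0.10 (SE, edgeR adjusted p = 0.0266), and of 0.37 without MOLM13 (edgeR adjusted p = 0.302).

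GRWD1 is a chaperone of the ribosomal protein RPL3. GRWD1 was at 71.4 CPM with Y518R against 36.4 CPM with 3R in MOLM13, 70.6 against 71.9 in THP1, 89.1 against 87.8 in RS4-11 and 101 against 82.2 in KOPN8. For GRWD1 the other lines gave 106 CPM with Y518R against 95.6 CPM with 3R in K562, 103 against 81.4 in RAJI, 74.2 against 81.3 in JURKAT and 84.6 against 83.2 in P493-6. The 3R level of GRWD1 in MOLM13 was the lowest of the 16 libraries, and its Y518R level there lay within the range of the other lines. GRWD1 had a slope of 0.66 ± 0.14 (SE, edgeR adjusted p = 0.0273), and of 0.35 without MOLM13 (edgeR adjusted p = 0.481). BOP1, the partner of PES1, was at 0.67 ± 0.17 (edgeR adjusted p = 0.0498), while WDR12, the other partner, was at 0.30 ± 0.14 (edgeR adjusted p = 0.262). NOP16 followed at 0.56 ± 0.14 (edgeR adjusted p = 0.053), and the lowest slope of the role was that of RRP1B (0.17 ± 0.11). The counts of PPAN are uncertain because a read-through transcript joins it to its neighbour P2RY11.

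The 6 other nucleolar proteins had slopes above 0 and none was called. NPM1 is nucleophosmin, an abundant nucleolar chaperone with many pseudogene copies, which makes its counts uncertain. NPM1 was at 1349.9 CPM with Y518R against 1116 CPM with 3R in MOLM13, 549 against 708 in THP1, 953 against 815 in RS4-11 and 707 against 665 in KOPN8. For NPM1 the other lines gave 1182 CPM with Y518R against 1189 CPM with 3R in K562, 1380.5 against 1271 in RAJI, 632 against 590.4 in JURKAT and 1669 against 1689.8 in P493-6. THP1 stood apart with a ratio of −0.37, the lowest of the 8. The NPM1 slope was 0.35 ± 0.11 (SE, edgeR adjusted p = 0.101), and 0.46 with an adjusted p of 0.0351 once the GC trend was removed.

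GNL3, or nucleostemin, is a nucleolar GTP-binding protein. GNL3 was at 247 CPM with Y518R against 218 CPM with 3R in MOLM13, 207 against 241 in THP1, 292 against 304 in RS4-11 and 288 against 275 in KOPN8. For GNL3 the other lines gave 271 CPM with Y518R against 277 CPM with 3R in K562, 332 against 313 in RAJI, 213 against 188 in JURKAT and 388 against 403 in P493-6. GNL3 was lowest in THP1 (−0.23), with the other lines between −0.056 and 0.18. Its slope was 0.22 ± 0.10 (SE, edgeR adjusted p = 0.244), and the remaining 4 genes, NCL, NOLC1, DDX21 and LYAR, had slopes from 0.082 to 0.19.

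Of the wider list 11 of 95 genes were called, all in the same direction as MYC. The lowest p-values belonged to RSL24D1, a factor of the forming large subunit (0.65 ± 0.12, edgeR adjusted p = 0.0207), NLE1, another large subunit factor (0.84 ± 0.16, edgeR adjusted p = 0.0214), and NOP10, the fourth core protein of box H/ACA particles (0.81 ± 0.16, edgeR adjusted p = 0.023). Below 0 the lowest p-values were those of TAF1A, of the RNA polymerase I selectivity factor (−0.29 ± 0.24, edgeR adjusted p = 0.562), DDX52 (−0.13 ± 0.12, edgeR adjusted p = 0.606) and RIOK2, a kinase of small subunit maturation (−0.13 ± 0.13, edgeR adjusted p = 0.646). These slopes are log2 per log2 unit with their SE, from the same edgeR fit.

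As a description, the Pearson correlation of each gene's log2 ratio with that of MYC over the 8 lines had a median of 0.69 in the 38 genes, 0.56 in the wider list and −0.012 over all 13042 genes. It was above 0.7 for 19 of 38 members, beside 9.89% of all genes, and highest for FBL (0.96) and PES1 (0.95) and lowest for RRN3 (−0.15). Without MOLM13 and THP1, over 6 lines, the medians were 0.51 in the members, 0.26 in the wider list and 0.041 over all genes. FBL (0.93) and PES1 (0.98) kept high values over those 6 lines, while DKC1 (0.0019), GNL3 (0.048) and NPM1 (0.14) did not. The ratios of a line share their libraries, depth and base composition, so these correlations are not independent of technical differences between the libraries.

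Levels also differed between lines far more than between peptides. The SD between lines of a gene's log2 CPM had a median of 0.55 over the 38 genes, against 0.14 between the libraries of a line. The fold range between the highest and lowest line had a median of 2.81 in the members and 4.85 over all genes. DDX21, an RNA helicase, had the widest range at 7.04-fold, from 148 CPM in THP1 to 1043 CPM in K562 (means of both libraries), and RRN3 the narrowest at 1.64-fold.

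The order of the lines was close to that of their MYC level at both ends. P493-6, with MYC at a mean of 4982 CPM, had the highest level of 21 of the 38 genes, K562 (447 CPM of MYC) of 11, RAJI (447 CPM) of 5 and MOLM13 of NOP58. THP1, with the lowest MYC level (159 CPM), had the lowest level of 20 genes. Relative to each gene's mean over lines, the median log2 deviation was 0.60 in P493-6, 0.38 in K562 and 0.34 in RAJI, and it was −0.095 in RS4-11, −0.13 in JURKAT, −0.17 in MOLM13, −0.21 in KOPN8 and −0.51 in THP1. Over all tested genes this median deviation lay between −0.0089 (K562) and 0.0905 (MOLM13). For the 38 genes MOLM13 came below the mean, with the second highest MYC level as a mean of both libraries (574 CPM). That rank is carried by the Y518R library (756 CPM), since with 3R alone MOLM13 (392 CPM) came after P493-6, RAJI and K562. With 3R alone it still came before JURKAT (364 CPM), RS4-11 (329 CPM), KOPN8 (281 CPM) and THP1 (197 CPM). The deviation of −0.17 is from both libraries, and 37 of the 38 genes were lower with 3R than with Y518R in MOLM13. The members' median deviations in RS4-11, JURKAT, MOLM13 and KOPN8 lie close together, from −0.21 to −0.095. The SD of 0.14 between libraries of a line is that of a single gene. It does not measure the spread of these medians, so the order of these lines was not tested.

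**Figure D5:**
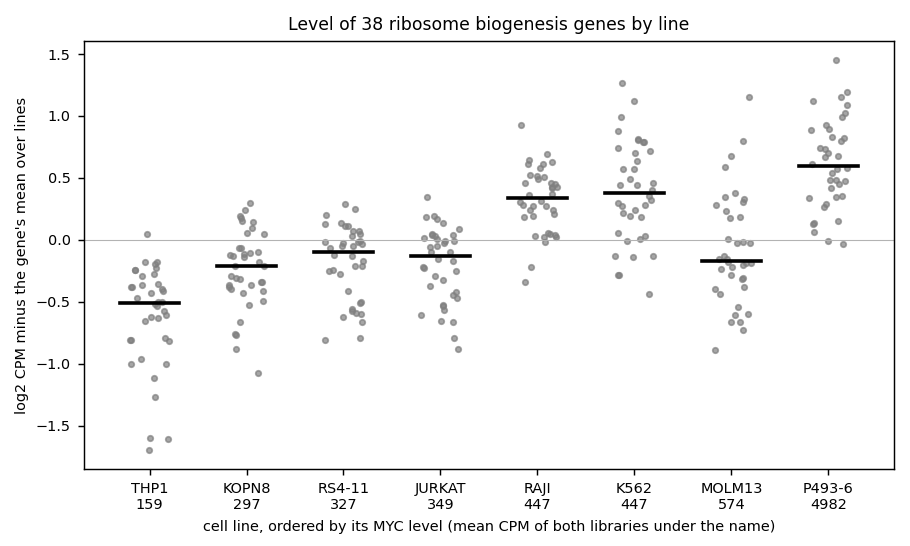
Log2 CPM of each of the 38 genes minus its mean over lines (vertical axis, 1 point per gene, mean of both libraries of a line) in the 8 lines ordered by MYC level, with the median as a bar. THP1 is lowest (−0.51) and P493-6 highest (0.60), and MOLM13 lies at −0.17, with a MYC level placed by the mean of its Y518R (756 CPM) and 3R (392 CPM) libraries.

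The correlation of a gene's level with the MYC level over the 8 lines was above 0 for 38 of 38 members, with a median of 0.66, beside 0.43 in the wider list and 0.023 over all genes. It was highest for NOP14 (0.94) and lowest for GRWD1 (0.045). Without P493-6 and THP1, the lines farthest from the median MYC level, the median was 0.36 with 31 of 38 above 0, and 0.43 in the wider list. Among the 6 remaining lines FBL and RRP12 stayed high (0.99 each), whereas GRWD1 (−0.54), NCL (−0.46) and UBTF (−0.34) were below 0. FBL followed the order of MYC in level (rho = 1) as in change, while GRWD1 followed the MYC change (0.88) and not its level. The order in level includes a near tie of mean MYC between K562 (447.33 CPM) and RAJI (447.15 CPM).

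In the 3R libraries alone, 37 of the 38 genes were lower in the MLL-fusion lines than in the other lines, PPAN being the exception. The median log2 difference, MLL-fusion minus other lines, was −0.56 in the members and −0.41 in the wider list, beside −0.0042 over all genes. The edgeR test called 0 members and 7 genes in all (0.0537%), with 10 members at an unadjusted p under 0.05, all lower, beside 720 genes higher and 608 lower. DESeq2 called 470 genes and limma-voom 5. UTP20 had the lowest p among the members, with a difference of −1.17 ± 0.24 (SE, n = 4 lines per class, edgeR adjusted p = 0.292). MYC itself had a log2 difference of −2.45 ± 0.96 (SE, edgeR adjusted p = 0.459), with P493-6 (5309 CPM) in the other class. Apart from P493-6, MYC with 3R was at 364 to 435 CPM in the other lines, against 197 to 392 CPM in the MLL-fusion lines. Without P493-6 the members' median was −0.40, and leaving out each other line gave −0.51 to −0.75, so that the median kept its side of 0 in all 8 such fits. The −0.75 was without JURKAT. Its members' median deviation over both libraries (−0.13) lay among those of the MLL-fusion lines, so not every other line stood above that class.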

How the data were processed

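The deposited values are raw read counts per gene symbol, 1 file per library, with no normalization per the file values. Per the submitters' processing notes, the tools were TopHat2 2.1.1, HTSeq 0.6.1, CASAVA 1.8.4, DESeq and DESeq2 3.0, and no role is stated for any of them. The notes name 2 genome builds, GRCh38 and hg19, without roles, so coordinates are printed for RefSeq promoter windows alone. No source used here gives the strand setting, so reads of overlapping genes and of near-identical copies may be misassigned. The 5 entries that name no gene were dropped before scaling (their share is given with the depth).

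Tests used edgeR 4.0.16 under R 4.3.3 (quasi-likelihood test, TMM scaling, filterByExpr at a minimum count of 10, Benjamini-Hochberg adjustment over all genes tested, calls at an adjusted p under 0.05). The comparisons were Y518R with 3R over 8 lines, within each class of 4 lines and between the classes, the slope on the centred MYC log2 ratio of the line, and the classes in the 3R libraries. Cell line was the block in all but the last, which has 1 library per line and no block. The MYC ratio entered the slope as if known without error. The SE comes from the log2 change and the root of the F statistic. CPM are TMM-scaled, and log2 ratios within a line use a prior count of 2. Exact 95% intervals cover counting error alone. Libraries of a line share its cells, and each of the 16 libraries matched the other library of its line best (rank correlation of at least 0.988 within and at most 0.883 between lines). Nothing in the labels says that libraries of a line came from separate cultures, so p-values measure the spread between lines, which may be technical in part. The edgeR steps were tested on simulated counts.

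Alternatives were DESeq2 1.42.0, limma-voom (limma 3.58.1), other scalings, no filter, no block and leaving out lines. Removal of each line's GC trend was added after seeing the data. The members and the lists were chosen with earlier results of these data known. Values in every library are given for the 2 genes of each role with the lowest p in the slope, and for the 3 with the lowest p in each direction over 8 lines. The 3 genes of the wider list with the lowest p in each direction of the slope are named, and others where they are extremes or are called.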

Additional observations from a re-analysis of the deposited data

Results flagged for a closer look

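In 43 groups of 8 libraries or ratios, the highest or lowest value was checked for a gap to its neighbour beyond Dixon's 95% limit. Chance passes that limit in about 1 of 20 independent groups. The ratio groups share the same libraries, so the flags of 1 line are not separate events and their number has no such reference. MOLM13 stood apart from the other 7 lines in its log2 ratio of Y518R over 3R for RRP9 (1.53), TBL3 (1.14), GRWD1 (0.97), WDR43 (0.70), PES1 (0.61) and POLR1B (0.39). THP1 stood apart for WDR12 (−0.54) and NPM1 (−0.37). MYC in the 3R libraries stood apart in P493-6, at a log2 CPM of 12.4. The RAJI 3R library stood apart with 44.7% of reads in no gene.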

How the results depend on the processing

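Without the replicate block the slope on MYC called 0 genes and 0 members. The fits of Y518R against 3R over 8 lines, in each class and between the classes also called 0 genes without it. The members' median without the block was 0.078 over 8 lines, 0.11 in the MLL-fusion lines and 0.070 in the other lines. The comparison of classes in 3R libraries has 1 library per line and so no pairs. With total counts alone 4 members were called in the slope, and 5 members were 1.5-fold higher in MOLM13. Without a filter on counts 3 genes were called over 8 lines, 52 in the MLL-fusion lines, 1 in the other lines and 9 between the classes. DESeq2 called 1 gene in the MLL-fusion lines, 2 between the classes, 700 in the slope and 470 between the classes in 3R libraries. Limma-voom called 1 gene over 8 lines, 20 in the MLL-fusion lines, 2 in the other lines, 2 between the classes and 768 in the slope. The Y518R libraries gave 4 genes between the classes in place of 7. Without MOLM13 and THP1 the slope called 0 genes and 0 members with a median of 0.55, over MYC log2 ratios from −0.19 to 0.15 alone. Without P493-6 and THP1 the median level correlation with MYC was 0.36. Leaving out each line in turn gave 0 to 3 genes in the MLL-fusion lines, 0 to 1 between the classes, 43 to 594 in the slope with 0 to 10 members, and 0 to 12 between the classes in 3R libraries. The cause of these changes was not tested. The other scalings shifted the median log2 change of all genes by −0.00032 (DESeq2 size factors) and −0.0086 (total counts). With 1 library per peptide and line, a change in a single line has no replicate.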
